A study of Mus musculus with 6 samples.

Results

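The AP-1 genes examined here were 10 mouse genes, found by symbol in the deposited expression table: Fos, Fosb, Fosl1, Fosl2, Jun, Junb, Jund, Batf, Jdp2 and Ier2. Each symbol matched 1 gene identifier, so the 10 genes were 10 of 55471 identifiers in the table. They were measured by total RNA sequencing of haematopoietic stem cells sorted from mouse as lineage-negative, Kit-positive, Sca1-positive, CD48-negative and CD150-positive cells. The genotype was ETV6-RUNX1 in both groups. ETV6-RUNX1 is a fusion gene known from childhood B-cell leukaemia, switched on here by doxycycline. The uninduced group was 3 libraries from mice without doxycycline, and the induced group was 3 libraries from mice given doxycycline in food for 2 weeks. Mouse age and the promoter driving the transgene are not given in the sources used here. No library with doxycycline and without the fusion was analysed here, so induction and doxycycline cannot be told apart. The labels do not say that each library is 1 mouse, so p-values measure the spread between these libraries.

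AP-1 is a family of basic leucine zipper transcription factors that bind DNA as dimers. The Fos proteins (Fos, Fosb, Fosl1, Fosl2) need a Jun partner, whereas the Jun proteins (Jun, Junb, Jund) can pair with Fos proteins or with each other. Batf and Jdp2 are smaller relatives that pair with Jun proteins and lack a transactivation domain. Fos, Fosb, Jun, Junb and Ier2 are immediate early genes, transcribed within minutes of growth factor or stress signals. Such signals reach them through MAP kinases, and for several of them through serum response factor. Their transcripts are short-lived, and cell isolation itself is known to induce them. Egr1 and Nr4a1 belong to the same class of rapid genes, encode a zinc finger factor and an orphan nuclear receptor, and have been linked to stem cell quiescence.

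Fos, Jdp2 and Batf lie in that order on the plus strand of chromosome 12 in GRCm38, the build named in the submitters' processing notes, with coordinates from GENCODE M21. Fos spans 85473890 to 85477273, Jdp2 85599027 to 85639878 and Batf 85686669 to 85709087, a stretch of 235.2 kb in which Jdp2 is the only protein-coding gene between Fos and Batf. Junb (84974484 to 84978718, minus strand) and Ier2 (84661331 to 84662852, minus strand) lie 311.6 kb apart on chromosome 8, which also carries Jund (70698949 to 70700616, plus strand). Jun lies on chromosome 4 (95049034 to 95052222, minus strand) and Fosb on chromosome 7 (19302696 to 19310051, minus strand). Fosl2 is on chromosome 5 (32135801 to 32157842, plus strand) and Fosl1 on chromosome 19 (5447547 to 5455946, plus strand). Jun, Jund and Ier2 are single-exon genes.

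The 150 bases before the RefSeq start site are printed for the 3 genes that were lower in induced cells (Fos, Fosb, Jun) and for Junb and Fosl2, whose means were higher. The mean of Jund was also higher, and its sequence is not printed. They are from the RefSeq promoter table on GRCm38.p6, which held 8 of the 10 genes, and read 5′ to 3′ on the strand of the gene. The stretches are chr12:85473740-85473889 (plus strand), chr7:19310046-19310195 (minus strand), chr4:95052223-95052372 (minus strand), chr8:84978749-84978898 (minus strand) and chr5:32136322-32136471 (plus strand). Capitals mark TGACNTCA, a pattern for the variant AP-1 site and the cAMP response element, TGACG, which begins the latter, and TATAAA.
Fos: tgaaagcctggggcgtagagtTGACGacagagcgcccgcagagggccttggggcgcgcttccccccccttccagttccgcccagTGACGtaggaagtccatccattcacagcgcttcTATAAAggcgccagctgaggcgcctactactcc
Fosb: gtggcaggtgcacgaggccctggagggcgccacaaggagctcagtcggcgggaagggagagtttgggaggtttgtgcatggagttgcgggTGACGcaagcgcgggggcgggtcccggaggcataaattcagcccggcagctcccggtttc
Jun: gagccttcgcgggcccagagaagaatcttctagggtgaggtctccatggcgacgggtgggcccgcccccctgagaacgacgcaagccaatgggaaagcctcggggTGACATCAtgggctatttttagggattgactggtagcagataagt
Junb: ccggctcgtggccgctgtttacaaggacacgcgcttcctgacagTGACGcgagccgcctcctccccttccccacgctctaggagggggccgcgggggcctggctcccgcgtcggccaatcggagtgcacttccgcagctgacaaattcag
Fosl2: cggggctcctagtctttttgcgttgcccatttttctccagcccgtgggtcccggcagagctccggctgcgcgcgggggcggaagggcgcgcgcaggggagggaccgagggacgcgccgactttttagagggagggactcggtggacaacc
Motifs were searched on both strands, and TGACG overlaps TGACNTCA wherever N is G. Over the 300-base windows of the table, TGACNTCA was present for 1 of the 8 genes, Jun, with its first base 45 bases before the start, against 8.84% of 32817 windows. TGACG, chosen after the sequences were seen, was present for 5 of the 8 genes, Fos, Fosb, Junb, Batf and 1 start of Jdp2, against 20.8% of windows. These counts are by gene and the shares by window, and Jdp2 has several windows, so the units differ. In Fos it began 129 and 66 bases before the start, in Fosb 60 and in Junb 106. The AP-1 site TGANTCA (7.81% of all windows) and the CArG box, the binding site of serum response factor (1.63%), had no match in these windows. The windows reach only 250 bases before the start and 50 after it, so sites farther upstream were not searched. TATAAA began 33 bases before the start of Fos and at the start of Junb, and is in 13.6% of all windows. A match is a run of letters and was not tested as a binding site.

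Transcripts of Jun, Fos and Fosb, the 3 most abundant members in uninduced cells, fell in induced cells, to 0.543, 0.625 and 0.614 of their uninduced mean TPM. Junb, Jund and Fosl2 had induced means of 1.19, 1.29 and 1.77 times the uninduced means, and Ier2 was at 0.921 of its own. None of these 4 passed the test. Egr1 and Nr4a1 fell much further, to 0.214 and 0.0581 of their uninduced means. TPM is a length-corrected share of a library's transcripts. The test was limma on log2(TPM + 1) over the 13470 genes whose mean reached 1 TPM. Of the 10 members 9 could be tested, of which 3 were called lower and 0 higher at a Benjamini-Hochberg adjusted p under 0.05. The same threshold called 10.2% of all tested genes lower and 1.29% higher. The single member with a higher mean at an unadjusted p under 0.05 was Fosl2, and no second tool was run. In bulk libraries, fewer cells with a transcript and less of it per cell cannot be told apart.

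**Figure D1:**
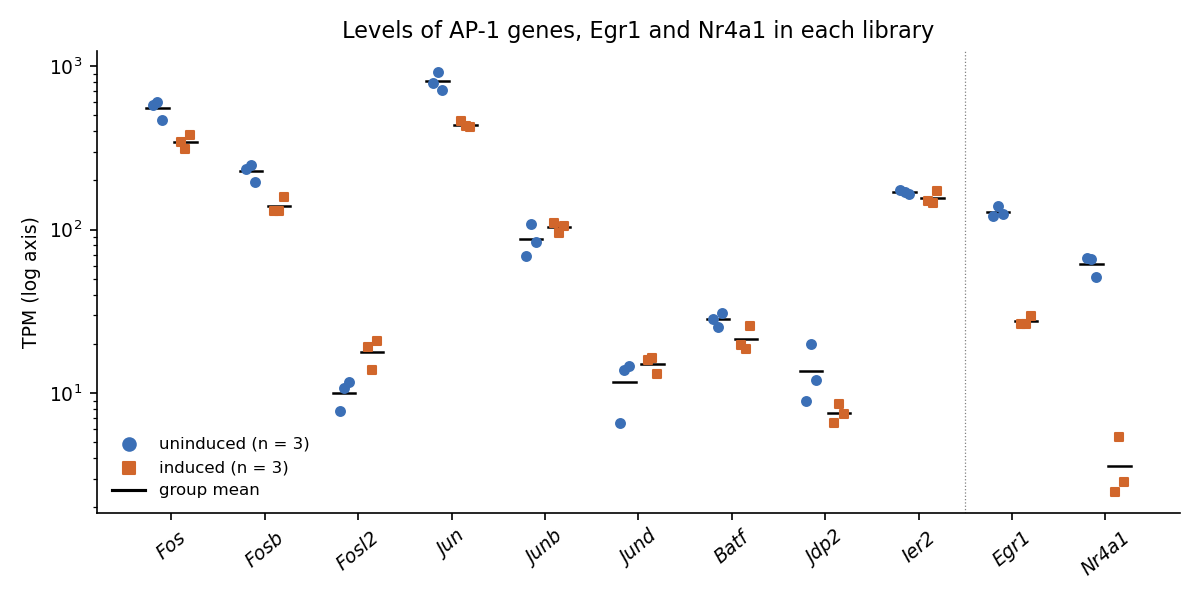
TPM of 9 AP-1 genes and of Egr1 and Nr4a1 in each library, on a log axis, with uninduced libraries as circles, induced libraries as squares and group means as bars (Fosl1, near 0, is left out). The groups separate for Fos, Fosb, Jun and Jdp2 downward and for Fosl2 upward, and the gaps of Egr1 and Nr4a1 are wider.

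The calls in this family depended on the scale. Nuclear protein-coding genes held 29.8% ± 3.13 of the TPM in uninduced libraries and 21.9% ± 1.35 in induced libraries (SD, n = 3 each). The median log2 change of all tested genes was -0.35, and the median over the 9 tested members was -0.40. Relative to the gene median, 5 members lay below and 4 above, from -0.53 for Jun to 1.11 for Fosl2. After median-of-ratios scaling, which brought the gene median to 0.0033, Jun was the 1 member called lower and Fosl2 the 1 called higher, against 3.10% and 2.88% of all genes. The depth of the libraries is unknown, since TPM keeps none.

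**Figure D2:**
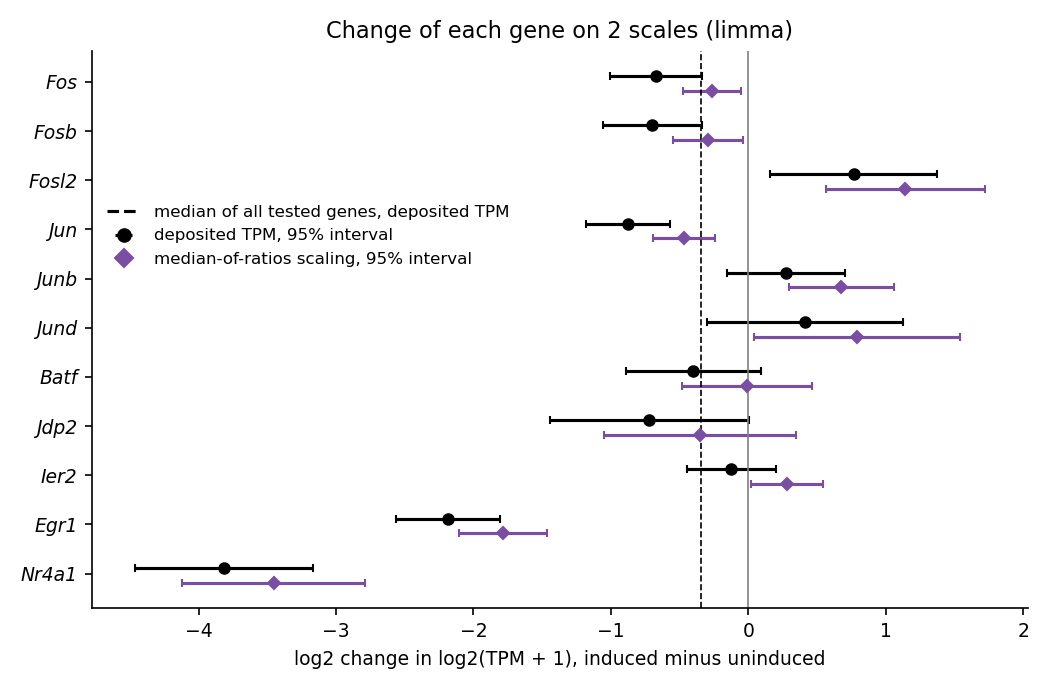
Log2 change of each gene, induced minus uninduced, on log2(TPM + 1), with 95% intervals from limma, for the deposited TPM (circles) and after median-of-ratios scaling (diamonds). The dashed line is the median of all tested genes on the deposited scale, -0.35, and the circles of Jun, Jdp2, Fosb, Fos, Batf, Egr1 and Nr4a1 lie to its left.

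Among the Fos genes, Fos itself, the founding member, was measured at 582, 605 and 465 TPM without induction and at 344, 312 and 377 TPM with it. All induced values were below all uninduced values. Its log2 change was -0.67 (SE 0.15, 95% interval -1.01 to -0.34, limma adjusted p 0.021), which ranked at percentile 27.3 of the 13470 changes. After median-of-ratios scaling the change was -0.26 (limma adjusted p 0.143), which did not pass.

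Fosb, the close relative of Fos, was at 236, 250.0 and 196 TPM without induction and at 130.0, 130.1 and 159 TPM with it. Its groups did not overlap either, and its log2 change of -0.70 (SE 0.16, limma adjusted p 0.0232) was near that of Fos. It became -0.29 after median-of-ratios scaling (limma adjusted p 0.170). Both calls were also lost when uninduced replicate 1, uninduced replicate 2, induced replicate 1 or induced replicate 2 was left out. Adjusted p in limma then ranged from 0.0611 to 0.0924 over both genes. Without the filter on low genes neither passed (limma adjusted p 0.0664 for Fos and 0.0579 for Fosb). The ratio of Fosb to Fos within a library stayed between 0.378 and 0.422, and its groups overlapped.

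Fosl2, which encodes the Fos-related protein Fra-2, was much rarer, at 7.82, 10.8 and 11.7 TPM in uninduced and 19.04, 13.8 and 20.8 TPM in induced libraries. The groups did not overlap, with every induced library higher. Its log2 change was 0.77 (SE 0.27, 95% interval 0.16 to 1.37, limma adjusted p 0.0995), short of the threshold on the deposited scale. After median-of-ratios scaling it rose, with a change of 1.14 (SE 0.26, limma adjusted p 0.0355). Fosl1, which encodes Fra-1, was listed at 0.265, 1.91 and 0 TPM in uninduced libraries and at 0 TPM in the induced libraries. It was below the filter and was not tested. Of its annotated exonic bases 57.2% also belong to Ccdc85b on the opposite strand, and whether reads were counted by strand is not given in the sources used here.

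Among the Jun genes, Jun, the most abundant member in both groups, was at 785, 923 and 716 TPM without induction and at 461, 428 and 426 TPM with it. The lowest uninduced library was well above the highest induced library. Its log2 change was -0.87 (SE 0.14, 95% interval -1.18 to -0.57, limma adjusted p 0.00507). After median-of-ratios scaling Jun still fell, by a change of -0.47 (SE 0.099, limma adjusted p 0.0294). The call held with any 1 library left out, but without a variance trend in limma none of the 3 calls held (adjusted p 0.0648 for Jun). On the deposited scale Jun ranked at percentile 17.7 of all tested changes. The antisense gene Junos shares 7.28% of the exonic bases of Jun and was at 3.07 to 10.4 TPM over the 6 libraries.

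Junb, a weaker activator than Jun that can oppose it, was at 68.9, 108 and 83.9 TPM in uninduced and 110, 95.8 and 105 TPM in induced libraries. The groups overlapped, since uninduced replicate 2 exceeded 2 induced libraries. Its log2 change was 0.27 (SE 0.19, 95% interval -0.16 to 0.70, limma adjusted p 0.396). It was 0.12 without uninduced replicate 1 and 0.44 without uninduced replicate 2. After median-of-ratios scaling it was 0.68 (SE 0.17, limma adjusted p 0.0511). With TPM rescaled so that nuclear protein-coding genes make up the whole, the groups did not overlap, at 231, 329 and 315 in uninduced and 499, 466 and 453 in induced libraries, and Junb passed in that fit (0.71, limma adjusted p 0.0207). Prdx2, on the opposite strand, shares 7.52% of the exonic bases of Junb and was at 69.7 to 126 TPM in uninduced and 56.01 to 64.2 TPM in induced libraries.

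Jund, usually expressed in resting cells rather than induced, was at 6.58, 13.9 and 14.7 TPM in uninduced and 15.96, 16.5 and 13.1 TPM in induced libraries. The groups overlapped, and uninduced replicate 1 was the low value. Its log2 change was 0.41 (SE 0.32, 95% interval -0.30 to 1.13, limma adjusted p 0.438). Without uninduced replicate 1 the change was 0.075, and after median-of-ratios scaling of all libraries it was 0.79 (limma adjusted p 0.208). The antisense gene Gm11175, which shares 52.6% of the exonic bases of Jund, was at 0 to 0.273 TPM.

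Batf, known for its role in lymphocytes and in limiting stem cell self-renewal after DNA damage, was at 28.6, 25.4 and 31.1 TPM in uninduced and 19.7, 18.6 and 25.8 TPM in induced libraries. Induced replicate 3 lay above uninduced replicate 2, so the groups overlapped. The log2 change was -0.40 (SE 0.22, limma adjusted p 0.269), close to the median of all genes.

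Jdp2, a repressor that dimerizes with Jun, was at 8.96, 20.04 and 12.01 TPM in uninduced and 6.53, 8.56 and 7.44 TPM in induced libraries. Its groups did not overlap, by a narrow margin between uninduced replicate 1 and induced replicate 2. Its log2 change of -0.72 was about as large as that of Fosb, but with an SE of 0.33 it did not pass (limma adjusted p 0.181). Without uninduced replicate 2, its highest library, the change was -0.43, and after median-of-ratios scaling it was -0.35 (limma adjusted p 0.566). Over the members, groups did not overlap downward for 4 genes (Fos, Fosb, Jun, Jdp2) and upward for 1 (Fosl2), against 28.2% and 4.83% of all tested genes. This tally depended on the scale. With TPM rescaled to nuclear protein-coding genes it was 3 downward (Fos, Fosb, Jun) and 4 upward (Fosl2, Junb, Jund, Ier2), against 14.7% and 15.3% of the 10562 genes tested there.

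Ier2, an immediate early gene that is not a zipper protein, was at 174, 170 and 165 TPM in uninduced and 150.2, 145 and 173 TPM in induced libraries. The groups overlapped and its log2 change was -0.12 (SE 0.14, 95% interval -0.44 to 0.20, limma adjusted p 0.620). Its sign depended on the scale, with 0.28 after median-of-ratios scaling (limma adjusted p 0.199).

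Egr1 and Nr4a1 belong to the same class of rapid genes, and were set beside the family because their falls in these libraries were already known. Their values are therefore a description, as are the differences from them, and no p-value is given for either. Egr1 was at 121, 140 and 125 TPM in uninduced and 26.4, 26.5 and 29.5 TPM in induced libraries, which is -2.18 in log2 (SE 0.17). Nr4a1 was at 67.5, 66.3 and 51.2 TPM against 2.47, 5.42 and 2.85 TPM, or -3.82 in log2 (SE 0.29). At such low induced levels the value depends on the pseudocount, and it ran from -4.14 with 0.1 to -2.96 with 5. Among all tested genes these changes ranked at percentiles 0.846 and 0.0297, far below those of Fos and Jun. For each uninduced transcript of Fos there were 0.207 to 0.269 of Egr1, and in induced libraries 0.0766 to 0.0848.

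The difference between the changes was taken within each library, as log2(TPM + 1) of a gene minus that of Egr1 or Nr4a1. A scaling shared by all genes does not cancel fully there, because of the added 1. The change of Fos exceeded that of Egr1 by 1.51 log2 units (SE 0.14, 95% interval 1.21 to 1.82). For Jun, the member closest to Egr1, the difference was 1.31 (SE 0.13), and for Fosb it was 1.49 (SE 0.14). The differences of Junb and Fosl2 from Egr1 were 2.46 and 2.95.

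Against Nr4a1 the differences ran from 2.94 for Jun to 4.58 for Fosl2. Every difference in that fit shares the spread of Nr4a1, and limma's prior degrees of freedom were infinite. With each gene's own residual spread, a choice made after seeing the data, the difference of Fos from Nr4a1 was 3.15 (SE 0.34, 95% interval 2.20 to 4.09). A threshold test of these differences passes for 91.7% of all tested genes against Egr1 and for 99.7% against Nr4a1, or 97.5% with each gene's own spread, so it is not used here.

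**Figure D3:**
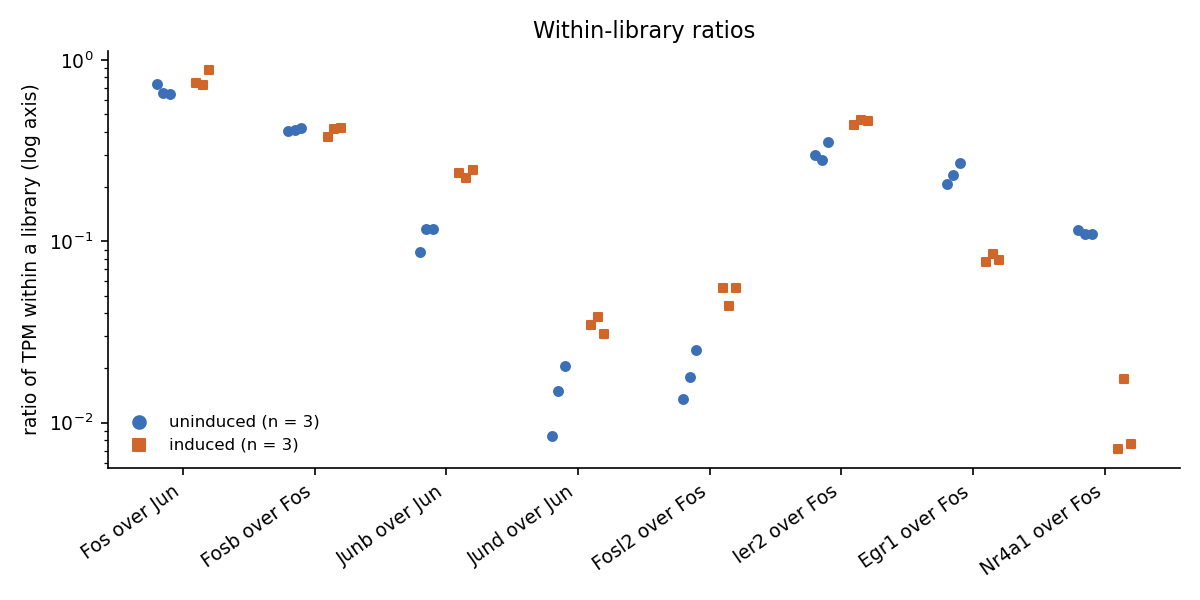
Ratios of TPM within each library, on a log axis, with uninduced libraries as circles and induced libraries as squares. Fosb over Fos and Fos over Jun overlap between the groups. Junb over Jun, Jund over Jun, Fosl2 over Fos and Ier2 over Fos are higher in all induced libraries, and Egr1 over Fos and Nr4a1 over Fos are lower in all of them. Jun and Fos ranked at percentiles 17.7 and 27.3 of all tested changes, so most tested genes had a higher change than either. The share of all genes with such a separation of ratios was not computed.

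The make-up of the Fos and Jun families was compared next, as a description without a test. Summed TPM of the 7 Fos and Jun genes ran from 1488 to 1913 in uninduced and from 996 to 1101 in induced libraries. Jun held 47.6% ± 0.943 of that sum in uninduced and 41.5% ± 2.37 in induced libraries (SD, n = 3 each). Junb held 5.13% ± 0.902 and 9.78% ± 0.330 (SD, n = 3 each). Its share was at least 9.57% in the induced libraries and at most 5.66% in the uninduced ones. Fosl2 held 0.604% ± 0.164 and 1.68% ± 0.265, and Jund 0.702% ± 0.300 and 1.44% ± 0.232 (SD, n = 3 each). Fos held 32.5% in both groups, and the 4 Fos genes together held 46.5% ± 2.12 and 47.3% ± 2.77 (SD, n = 3 each), with overlapping libraries. The ratio of Junb to Jun was 0.0877, 0.117 and 0.117 in uninduced and 0.238, 0.224 and 0.247 in induced libraries. Most tested genes had a higher change than Jun, which ranked at percentile 17.7.

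**Figure D4:**
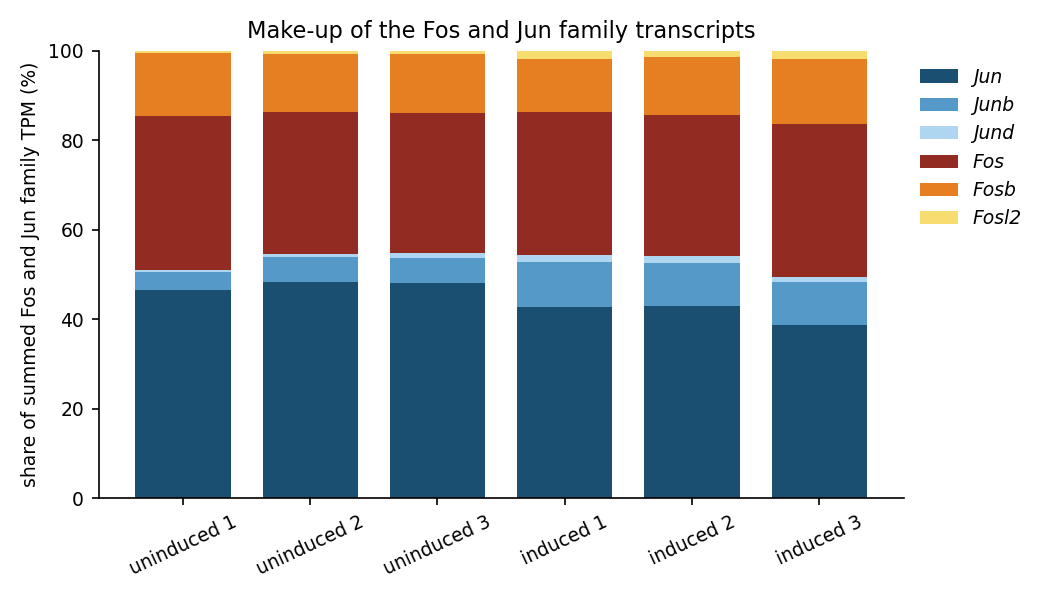
Share of each gene in the summed TPM of the Fos and Jun families, 1 bar per library from 0 to 100%, Fosl1 (below 0.1%) not drawn. The Junb segment is 4.09% to 5.66% in uninduced and 9.57% to 10.2% in induced bars, and the Jun segment is shorter in induced bars.

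The order of levels changed at few places. In uninduced cells it ran Jun, Fos, Fosb, Ier2, Junb, Batf, Jdp2, Jund, Fosl2 and Fosl1, and the neighbours Jdp2, Jund and Fosl2 overlapped over libraries while the others were separate. In induced cells it ran Jun, Fos, Ier2, Fosb, Junb, Batf, Fosl2, Jund, Jdp2 and Fosl1. There Ier2 overlapped Fosb, Batf overlapped Fosl2 and Fosl2 overlapped Jund. Of the 9 tested members, uninduced replicate 2 was the highest of its group for 5, induced replicate 3 was the highest for 5 and induced replicate 2 the lowest for 5.

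The other genes of the pathway came from lists written with earlier results of these data known, and are given as counts. Over all tested genes 10.2% were called lower and 1.29% higher, and after median-of-ratios scaling 3.10% and 2.88%. Of 15 tested genes of the MAP kinase cascade, 0 were called in either direction, with a median log2 change of -0.31. The 6 tested genes for serum response factor and its cofactors also had 0 calls. Srf itself had means of 19.6 ± 4.66 and 16.0 ± 4.98 TPM (SD, n = 3 each), and its difference of -0.30 in log2 did not pass (limma adjusted p 0.535). Of 17 tested genes for other basic zipper partners, 2 were called lower and 0 higher. These were Mafk, a small Maf protein (-1.02, limma adjusted p 0.0329), and Atf4, the factor of the integrated stress response (-0.64, limma adjusted p 0.0443). Neither passed after median-of-ratios scaling. Of 6 tested genes for turnover of AP-1 proteins, Cop1, a ubiquitin ligase for Jun, was called lower (-1.11, limma adjusted p 0.0239), and it did not pass after median-of-ratios scaling (adjusted p 0.162).

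The other immediate early genes went both ways. Of 16 tested, 5 were called lower and 1 higher, against 10.2% and 1.29% of all tested genes, and the list's median log2 change was -0.19. After median-of-ratios scaling 3 were lower and 5 higher, against 3.10% and 2.88%. Egr1 and Nr4a1, chosen for their falls, are in these counts. Without them 3 of 14 were lower and 1 higher, with a median of -0.04, and after median-of-ratios scaling 1 was lower and 5 higher. Beside Nr4a1 and Egr1, Myc, a growth regulator, fell by 1.46 in log2 (limma adjusted p 0.012), with means of 59.8 ± 12.9 and 21.7 ± 8.79 TPM (SD, n = 3 each). Klf4 (-1.22) and Klf2 (-1.03), zinc finger factors named here after their values were seen, were the others called lower. After median-of-ratios scaling Myc still passed (limma adjusted p 0.0415), and Klf4 (0.061) and Klf2 (0.18) did not. Klf6, a zinc finger factor of the same family, rose by 0.69 in log2 (limma adjusted p 0.0328), with means of 59.4 ± 7.14 and 96.3 ± 9.72 TPM (SD, n = 3 each). After median-of-ratios scaling Ier5, Socs3, Rhob and Dusp1, also named after their values were seen, were called higher with Klf6.

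**Figure D5:**
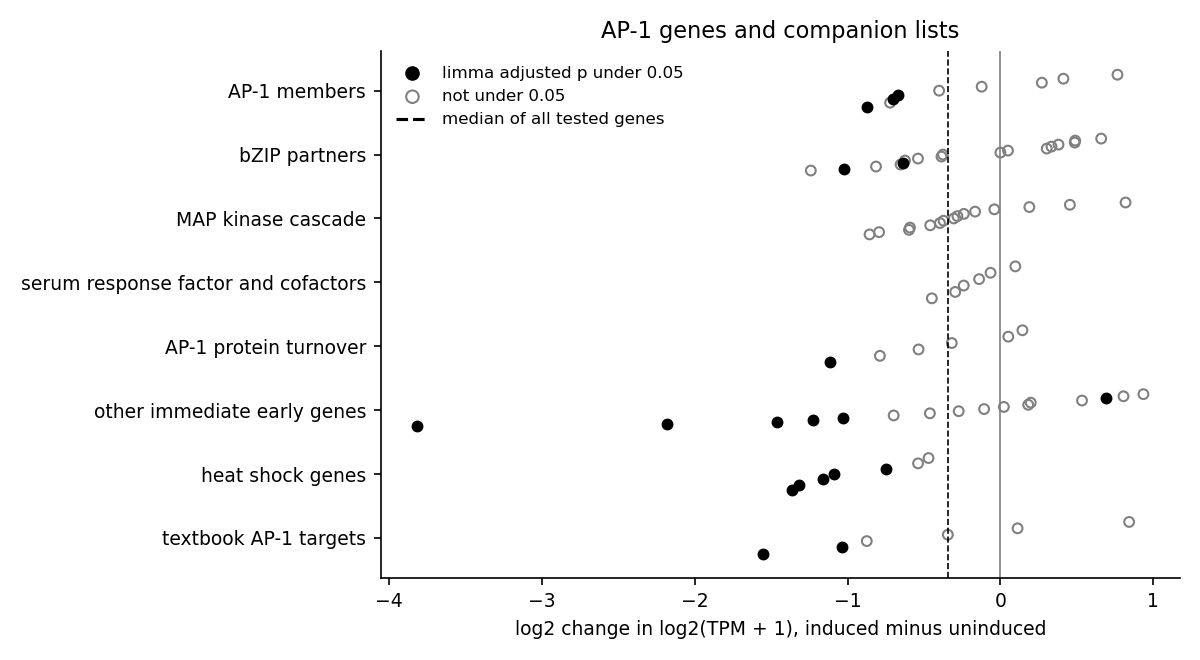
Log2 change of each tested gene, induced minus uninduced, on log2(TPM + 1), for the AP-1 genes and 7 companion lists, with filled points for a limma adjusted p under 0.05. The dashed line is the median of all tested genes, and the immediate early genes spread from -3.82 for Nr4a1 to 0.94 for Ier5.

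Of 7 tested heat shock genes, a class that cell isolation can also induce, 5 were called lower and 0 higher, against 10.2% and 1.29% of all tested genes, with a median log2 change of -1.09. The mitochondrial chaperones Hspd1 (-1.36, limma adjusted p 0.00537) and Hspe1 (-1.32, limma adjusted p 0.00433) led them, with Hsph1 (-1.16, limma adjusted p 0.0335). The other 2, Dnaja1 (-1.09) and Hsp90aa1 (-0.75), were named after their values were seen. After median-of-ratios scaling 2 were lower, Hspd1 and Hspe1, against 3.10% of all genes. The inducible genes Hspa1a and Hspa1b were at 0 to 1.70 TPM over all libraries and were not tested, and the list's summed level was 848 to 1015 TPM in uninduced and 531 to 565 TPM in induced libraries. The part of handling in the falls of Fos, Fosb and Jun was not tested.

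Of 13 textbook AP-1 target genes 6 could be tested, of which 2 were called lower and 0 higher, against 10.2% and 1.29% of all tested genes. Ccnd1, which encodes cyclin D1, fell by 1.55 in log2 (limma adjusted p 0.0227), with means of 13.6 ± 3.37 and 4.13 ± 2.04 TPM (SD, n = 3 each). Ezr, which encodes the membrane linker ezrin, fell by 1.03 in log2 (limma adjusted p 0.0227), with means of 38.8 ± 2.49 and 18.9 ± 5.38 TPM (SD, n = 3 each). Neither passed after median-of-ratios scaling, and 4 of the 13 were listed at 0 in all libraries.

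Of the genes for the sort markers, Kit was at 91.6 to 232.5 TPM over the 6 libraries and Ly6a, which encodes Sca1, at 12.1 to 42.8 TPM. Slamf1, which encodes CD150, was at 13.2, 15.5 and 10.6 TPM in uninduced and 5.98, 5.31 and 11.3 TPM in induced libraries, and its difference of -0.78 did not pass (limma adjusted p 0.155). The stem cell list (Kit, Ly6a, Slamf1, Procr, Mecom, Hlf) summed to 323 to 473 TPM in uninduced and 439.5 to 473 TPM in induced libraries. Of these 6, Kit, the stem cell factor receptor, fell (-0.81, limma adjusted p 0.0354), and Ly6a (1.33), Procr (1.15) and Hlf (0.76) rose, against 10.2% of all tested genes lower and 1.29% higher. After median-of-ratios scaling Kit did not pass (-0.40, limma adjusted p 0.224). On that scale 4 of the 6 were higher, Mecom with the other 3, against 2.88% of all tested genes. Of 18 markers of other cell types, 5 were listed at 0 in all libraries, among them Cd3e, Ms4a1, Siglech and Lepr. The summed level of all 18 was 87.7 to 127 TPM in uninduced and 320.3 to 378 TPM in induced libraries. The globin genes held most of that rise. Hbb-bs was at 9.48 to 23.4 TPM in uninduced and 152.9 to 196.4 TPM in induced libraries. Hba-a1 was at 7.65 to 19.3 TPM and 89.2 to 115.7 TPM. Of the 8 tested, 4 rose and 1 fell, against 1.29% and 10.2% of all tested genes. Hbb-bs (3.55), Hba-a1 (2.93) and Pf4 (1.13), which mark erythroid and platelet-forming cells, were among those that rose. The platelet gene Gp9 fell (-2.33). The myeloid markers Mpo (-1.10, limma adjusted p 0.173) and Elane (-1.15, limma adjusted p 0.155) had lower induced means and did not pass. The erythroid marker Klf1 had a higher one (1.00, limma adjusted p 0.26) and did not pass either. After median-of-ratios scaling Gp9 did not pass (limma adjusted p 0.0625) and 4 were again higher, against 2.88% of all tested genes. Pf4, Mpo, Elane and Klf1 were named after their values were seen. The called markers moved with the groups in which Fos, Fosb and Jun differed, and their part in that result was not tested.

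Many genes had the pattern of Fos and of Jun over the 6 libraries. Of 7770 other protein-coding genes averaging 5 TPM or more, 509 had a Pearson correlation of at least 0.95 with Fos and 567 with Jun on log2(TPM + 1). The closest to Fos were Thop1 (r = 0.9993), Cltb (r = 0.9988) and Kif21b (r = 0.9981). The closest to Jun were Top2b (r = 0.9976), Nucks1 (r = 0.9970) and Rbm25 (r = 0.9961). For Fos, Fosb ranked 40th by this measure (r = 0.990) and Jun 390th (r = 0.958). The 6 points share 2 groups and the same library scaling, and the values are a description only.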

How the data were processed

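Gene expression was measured in 6 libraries, 3 uninduced and 3 induced, and groups were taken from the library titles. The authors deposited 1 table of TPM per gene and library. HISAT2, StringTie and the build GRCm38 are named in the submitters' processing notes. Annotation release, versions, filters and strand setting are not given in the sources used here. The deposited GC content in percent was not used. The table's 60496 rows were summed per gene identifier. Column totals were 999976 to 999993 TPM, so depth is unknown and no counting interval can be given.

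The test was limma 3.58.1, run under R 4.3.3. It was fitted to log2(TPM + 1) of genes whose mean reached 1 TPM, with moderated variances and a variance trend. Tests were two-sided, with Benjamini-Hochberg adjustment over all tested genes and a threshold of 0.05. The log2(TPM + 1) scale understates changes of low genes. Differences from Egr1 and Nr4a1 were fitted the same way after subtracting that gene's value in each library. The limma fit of each gene was also run on simulated data with known changes, and the outcome is not reported here. All members, Egr1, Nr4a1 and Srf are named, with the 3 lower and 3 higher called genes of largest change per list. Members, lists and this rule were chosen with earlier results of these data known. Other pseudocounts, filters, scalings, variance settings, blocking on the replicate number and omission of each library in turn were tried. Some markers of other cell types are counted but not reported here by name.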

Additional observations from a re-analysis of the deposited data

How the results depend on the processing

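The 3 members called lower became 1, Jun, in 5 alternatives: no expression filter, the replicate block, quantile normalization, median-of-ratios scaling and rescaling to nuclear protein-coding genes. They became 0 without a variance trend, where Jun had an adjusted p of 0.0648. Leaving out each library gave 1 to 3. Members called higher, 0 on the deposited scale, became 1 (Fosl2) with quantile normalization or median-of-ratios scaling, and 2 (Fosl2 and Junb) after rescaling to nuclear protein-coding genes. Ier2 changed sign to 0.295 with quantile normalization, 0.284 with median-of-ratios scaling and 0.314 after that rescaling, where Batf also changed sign to 0.0197. These scalings moved the gene median to between -0.0048 and 0.0251. For the other settings the cause was not tested. Over all genes, 1375 lower and 174 higher calls became 440 and 374 with quantile normalization, 418 and 388 with median-of-ratios scaling, 451 and 435 after rescaling (10562 genes tested in place of 13470), 656 and 96 without the filter (23013 tested), 659 and 108 without the variance trend, and 782 and 120 with the replicate block. Leaving out a library gave 527 to 1146 lower and 77 to 131 higher. Same-numbered libraries had deviations correlated at -0.0152 to 0.0215, and not every library correlated best with its own number, so the numbers were not taken to pair them. The differences from Egr1 and Nr4a1 were not read for stability, since nearly all genes pass that test.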
